A study of Bos grunniens and Bos grunniens x Bos taurus with 2 samples.

Results

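The cytosolic ribosomal protein genes encode the proteins of the small (40S) and the large (60S) ribosomal subunit. They were taken from the deposited counts by symbol: names made of RPL or RPS and a number with an optional letter or L, together with RPSA, RPLP0, RPLP1 and RPLP2. Of 26961 features of the yak annotation, 27 met the rule. They comprised 9 proteins of the 40S subunit, 14 of the 60S subunit, RPLP0 and RPLP1 of the ribosomal stalk, and 2 features named as paralogs, RPL10L and RPL3L. These 25 core genes stood against 77 on a list of the core proteins, and 15722 of the features carried a symbol. Features without one were not analysed here.

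Cells came from the testis of a sexually mature yak (*Bos grunniens*) and from cattle-yak testis of the same stage (*Bos grunniens* x *Bos taurus*), a cross for which the sources used here do not give the number of animals. Frozen tissue was thawed, digested with collagenase IV and hyaluronidase and then with trypsin, and sequenced as 1 droplet library each, and the labels name no treatment. Counts are UMIs, molecular tags that mark single captured transcripts. The cell line label of both libraries reads "Germ cell", whereas most kept cells lay in clusters with somatic markers. For the yak, the study assigned 1127 cells to 5 germ cell types, which are spermatogonial stem cells (SSC), spermatogonia (SPG), early and late spermatocytes (Early-SPC, Late-SPC) and spermatids (SPT). The other cells were clustered without the ribosomal protein genes and named from marker genes with the ending "-like", as T and natural killer (T/NK), B, endothelial (EC), lymphatic endothelial, pericyte, myoid (MC), stromal, macrophage, Sertoli (SC) or germ cells. Each group was 1 library, so there was no replicate check, no test was run, and a difference between the libraries is one between those libraries and not between yak and cattle-yak. Intervals are exact 95% intervals and hold counting error only.

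Ribosomal protein transcripts are among the most abundant messages of a dividing cell, since each ribosome needs a copy of nearly every subunit protein. In the testis, spermatogonia divide and build ribosomes, spermatocytes pass through a long meiotic prophase in which the X chromosome is silenced, and spermatids store and later translate messages as their genome is packed. Mammals carry copies of some X-linked ribosomal protein genes on autosomes, and RPL10L is the textbook case, a copy of RPL10 that is needed for male meiosis.

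The yak library held 60816600 UMIs in 11991 cells, of which 10324 were kept, and the cattle-yak library held 43774841 UMIs in 8930 cells, of which 7092 were kept. Kept cells had medians of 2445 and 2994 UMIs. A total of 24 barcodes occurred in both libraries, which were analysed apart. The mitochondrial share of UMIs was 14.2% in the yak and 18.9% in the cattle-yak cells, and a pair of rRNA features took 10.1% and 16.6%. Of the SSC cells, 75 of 84 lay in EC-like clusters and 2 in germ-like clusters, and the summed EC markers stood at 2200 CPM in SSC cells against 545 CPM over all typed germ cells. Of the SPG cells, 146 of 486 lay in germ-like clusters and 289 in an unnamed cluster, whereas all 261 Late-SPC cells, 217 of 224 SPT cells and 64 of 72 Early-SPC cells lay in germ-like clusters.

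The 27 members together took 7.73% of the UMIs of kept yak cells and between 5.99% and 6.01% (interval) of those of kept cattle-yak cells. The 5 members with the most counts over both libraries were RPL10L, RPS2, RPLP0, RPLP1 and RPS3A. RPS2 sits near the channel by which mRNA enters the 40S subunit. RPLP0 anchors the stalk that binds elongation factors, and RPLP1 forms the stalk with it. RPS2 took 6.79% of the member counts in yak cells, the feature labelled RPL10L 6.57%, RPLP0 6.40%, RPLP1 6.35% and RPS3A 5.07%. At the other end stood RPL3L, the paralog of RPL3 known from striated muscle, with 101 counts over all yak cells and 51 over all cattle-yak cells. Besides RPL3L, the least abundant member, RPL27, still had 54505 counts in kept yak cells, and all 26 members but RPL3L were above 165 CPM in every yak class.

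In the yak, the members formed the largest part of the transcripts in T/NK-like cells and the smallest in early spermatocytes. They took 10.96% of the UMIs of 3694 T/NK-like cells (interval 10.94 to 10.99) and 1.81% of those of 72 Early-SPC cells (interval 1.76 to 1.86), which was 6.06-fold lower. SSC cells, most of them in EC-like clusters, stood at 6.87%, SPG at 5.50%, Late-SPC at 3.32% and SPT at 3.64%. Counting intervals of these 5 types did not overlap. A further 224 germ-like cells that the study had not typed, at a median of 5238 UMIs, stood at 2.76%. Among somatic classes, B cell-like cells came next to T/NK-like cells with 8.15%, followed by pericyte-like (7.87%), EC-like (7.74%), MC-like (7.63%), lymphatic EC-like (6.98%), macrophage-like (6.45%) and stromal-like cells (5.32%). SPG and stromal-like cells thus lay side by side, and every later germ cell type lay below every named somatic class of the yak.

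**Figure D1:**
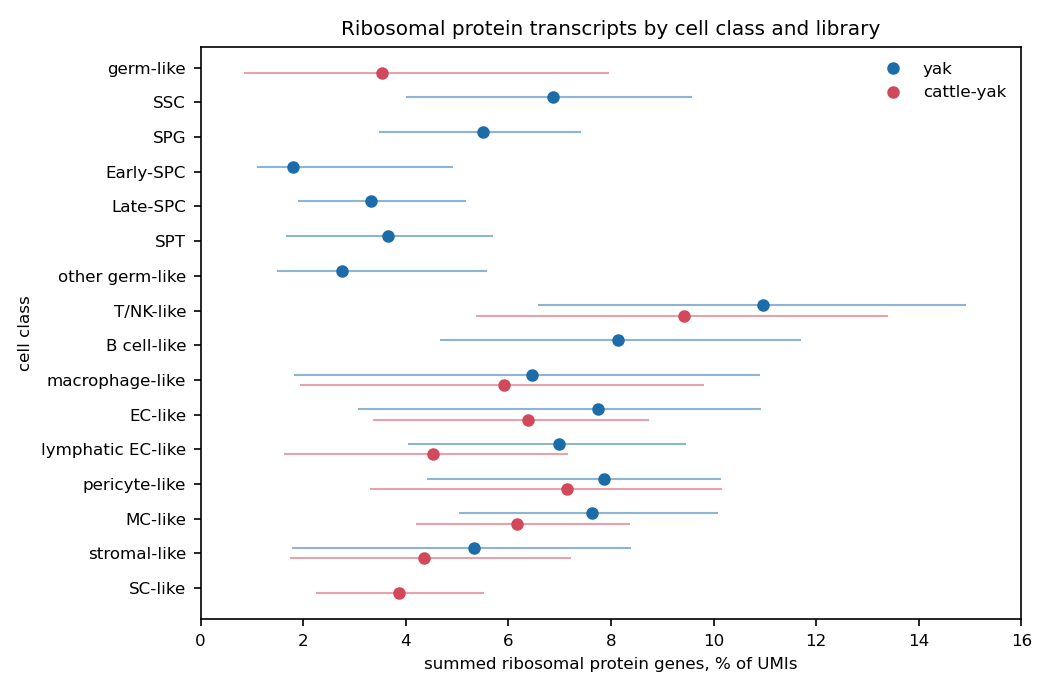
Summed UMIs of the 27 ribosomal protein genes as a percentage of all UMIs (x axis) for each cell class (y axis) in the yak and the cattle-yak library. Points are the pooled value of a class and lines run from the 10th to the 90th percentile of its cells; T/NK-like cells lie farthest to the right in both libraries and Early-SPC farthest to the left.

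Cells of a class differed widely around these pooled values. The middle 80% of T/NK-like cells ran from 6.59% to 14.9% with a median of 10.5%, and those of Early-SPC cells from 1.11% to 4.90% with a median of 2.41%. Late-SPC cells ran from 1.92% to 5.16%, so that these ranges of spermatocytes and of T/NK-like cells did not overlap. Among the named yak classes, macrophage-like cells had one of the wider spreads, with a median of 3.99% and a 90th percentile of 10.9%. Among Early-SPC cells the deeper ones had the lower share, with a Spearman coefficient of -0.71 between share and UMIs over 72 cells of 1 library. Among SPT cells the share went with the mitochondrial share, at 0.70 over 224 cells. These are descriptions over cells that share a library, and the part of depth and of mitochondrial reads in the levels was not tested. Cells were also thinned to 1000 UMIs each, which left out the shallower 23 Early-SPC, 97 Late-SPC, 126 SPT, 249 SPG and 204 T/NK-like cells. Early-SPC then stood at 2.23%, Late-SPC at 3.58%, SPT at 3.53%, SPG at 5.39% and T/NK-like cells at 10.7%. Late-SPC and SPT thus changed places, and the other 3 classes kept their order.

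Markers of somatic cells were also detected in the germ cell types. The summed T/NK markers stood at 105 CPM in Early-SPC, 168 CPM in Late-SPC, 243 CPM in SPT and 165 CPM in SPG, against 2019 CPM in T/NK-like cells. The summed MC markers stood at 744 CPM, 2129 CPM, 3398 CPM and 5907 CPM in the same types, against 38666 CPM in MC-like cells. The summed EC markers stood at 2200 CPM in SSC and 537 CPM in SPG, against 4130 CPM in EC-like cells. The summed SPG markers stood at 529 CPM in SSC and 1378 CPM in SPG. The part of somatic transcripts in the germ cell levels was not tested.

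Member by member, the lower level in germ cells was shared across both subunits. In the pooled germ cells of the 5 types, 23 of the 26 members with at least 50 counts were at least 2-fold lower than in T/NK-like cells, and none was higher, against 14.6% of all features tested. The median of the members was -1.42 on the log2 scale, and that of all 8822 features was 0.82. The 3 members short of 2-fold were RPL7A (-0.78), RPL32 (-0.99) and RPS2 (-0.99). RPL14 and RPL8 of the 60S subunit were lowest, at -1.80 and -1.79, and the feature labelled RPL10L followed at -1.74. The pooled cells include the SSC cells and the 292 SPG cells of unnamed clusters, and these values were not computed without either group.

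The types differed in how many members passed the same limit. It was 1 of 26 in SSC, RPL8, against 20.8% of all features, and 16 in SPG against 15.1%. Most SSC cells lay in EC-like clusters, and EC-like cells had 2 of 26 past the limit, against 13%. In Early-SPC all 26 passed, against 37.1% of all features. In Late-SPC and in SPT 24 passed, against 28.4% and 28.9%. Set against SPG in place of lymphocytes, 24 of 26 members were at least 2-fold lower in Early-SPC (29.1% of all features), 6 in Late-SPC (25.8%) and 3 in SPT (31.9%). The large step in share lay between SPG and Early-SPC, where the pooled sum was 3.04-fold lower. The 486 SPG cells held 34062 member UMIs among 618792, and the 72 Early-SPC cells held 5151 among 284770. Median depths were 979.5 and 1799.5 UMIs, so this is a step in share, and member UMIs per cell were not compared. Pooling gives deeper cells more weight, and the step was smaller by cell medians (5.38% and 2.41%) and after thinning (5.39% and 2.23%).

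**Figure D2:**
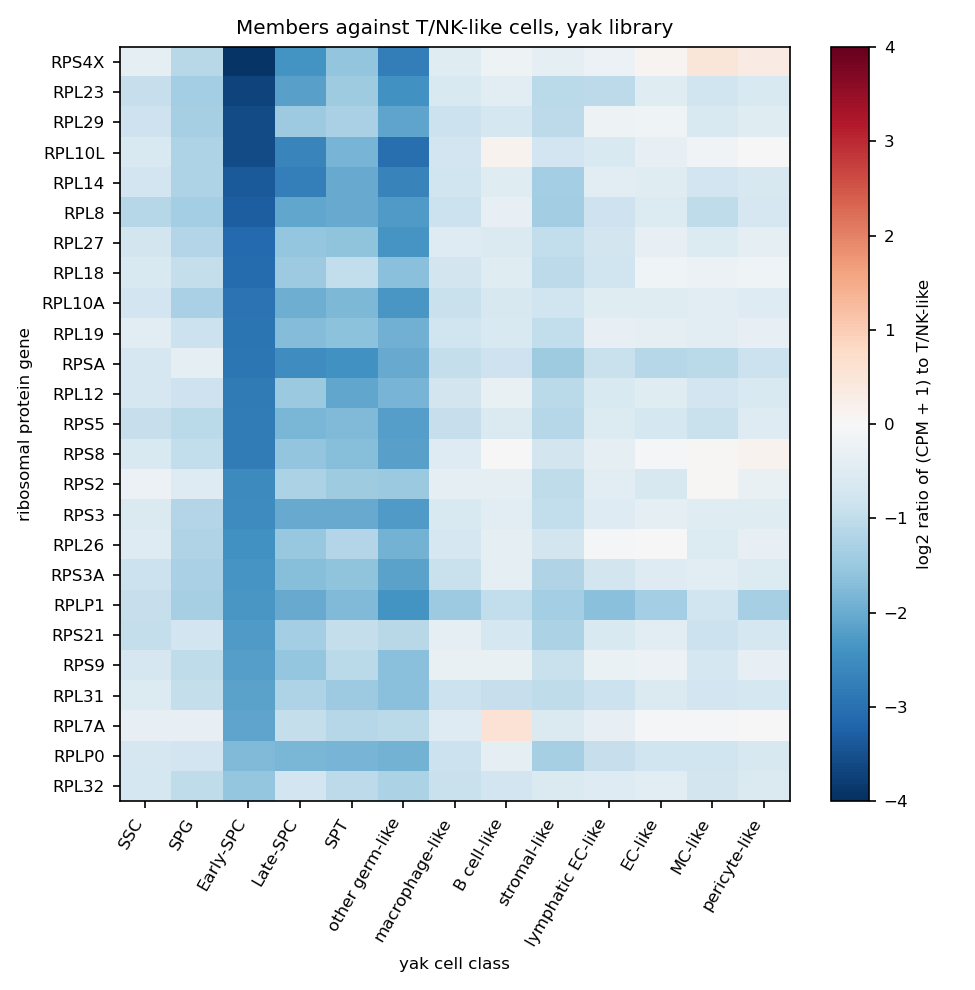
Log2 ratio of (CPM + 1) of each yak cell class (x axis) to T/NK-like cells for 25 ribosomal protein genes (y axis, ordered by their ratio in Early-SPC; RPL3L is left out for its low counts, and another member is not shown). Blue marks a lower level; the Early-SPC column runs from -3.91 for RPS4X to -1.54 for RPL32.

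The choice of reference mattered, since most somatic classes also lay below T/NK-like cells. Of the 26 members, 25 were also below T/NK-like cells in EC-like cells. The median of all 9163 features was 0.18 there, and the share of all features below 0 is not given here. Only 2 of the members, RPLP1 and RPSA, were at least 2-fold lower, against 13% of all features. RPLP1 stood at 9120 CPM in T/NK-like cells, 3591 CPM in EC-like, 3295 CPM in macrophage-like, 4585 CPM in B cell-like and 5255 CPM in MC-like cells. The T/NK-like level was thus the highest of these. In stromal-like cells 15 members passed, against 15.3% of all features. RPS4X, an X-linked 40S protein gene, went the other way in some classes. It was at 2493 CPM in T/NK-like cells, 2681 CPM in EC-like, 3109 CPM in pericyte-like and 3495 CPM in MC-like cells. Lymphatic EC-like (2100 CPM), stromal-like (1938 CPM), macrophage-like and B cell-like cells held less RPS4X than T/NK-like cells. RPL7A, a 60S protein, was higher in B cell-like cells, at 4523 CPM, than in T/NK-like cells, at 3058 CPM. Across 14 yak classes, 21 of 26 members had their highest level in T/NK-like cells, and 24 had their lowest in Early-SPC. The shares of all features with their highest or lowest level in these classes are not given here.

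The clusters of the T/NK-like class differed less in the yak than in the cattle-yak. The 5 clusters of the yak ran from 9.74% in 35 cycling cells, led by UBE2C and KIF11, to 11.6% in 1321 cells led by TRDC, a chain of the gamma delta T cell receptor. Cells led by CD28, ICOS and IL7R, genes of T cells, stood at 10.7%. In the cattle-yak the 5 clusters ran from 6.94% to 10.8%, a range that came near the EC-like level of 6.39% at its lower end. That lowest cluster held 68 cells, and the next stood at 8.43%. Its summed T/NK markers were at 851 CPM and its MC markers at 1305 CPM, against 1549 CPM and 446 CPM over all cattle-yak T/NK-like cells. RPLP1 took 8.34% of the member counts in the yak cells led by CD28, ICOS and IL7R, and 5.95% in the cycling cells of the yak.

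The composition of the ribosomal protein transcripts, the share of each member in their sum, was less even than the level. RPSA, a 40S protein also known as the laminin receptor, had its largest share in SPG. In the yak it stood at 3116 CPM in SSC, 3824 CPM in SPG, 671 CPM in Early-SPC, 892 CPM in Late-SPC and 939 CPM in SPT, and at 4981 CPM in T/NK-like cells. It took 6.95% of the member counts in SPG (interval 6.68 to 7.22) and 4.54% in T/NK-like cells, whereas Late-SPC and SPT stood at 2.69% and 2.58%. In Late-SPC it was 4.28-fold lower than in SPG, the largest difference of the 26 members compared there.

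The SPG cells fell into groups of unlike composition. In the 146 SPG cells of germ-like clusters RPSA took 10.4% of the member counts (interval 9.85 to 10.9), RPLP0 10.3% and RPS2 9.88%. In the 292 SPG cells of unnamed clusters they took 4.53%, 6.74% and 7.73%, against 4.54%, 7.12% and 6.28% in T/NK-like cells. Summed SPG markers stood at 2327 CPM in the former and 739 CPM in the latter cells, and MC markers at 1074 CPM and 10178 CPM, whose part in the difference was not tested. The summed share of UMIs was 5.42% and 5.48% in these groups, so that the level was alike where the composition was not. The ratio of 60S to 40S member counts was 1.13 in SPG of germ-like clusters and 1.34 in those of unnamed clusters. In named somatic classes it ran from 1.19 in MC-like to 1.55 in EC-like cells. It was 1.32 in pericyte-like, 1.33 in macrophage-like and 1.45 in T/NK-like cells, so a low ratio was not particular to SPG. It covers the 9 of 31 40S and 14 of 43 60S core genes found, without the stalk pair and RPL10L. RPSA and RPS2 are 40S genes, so their larger shares enter this ratio, and it does not measure the balance of the subunits.

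RPLP0 and RPLP1 had their largest shares in early spermatocytes. RPLP0 stood at 7804 CPM in T/NK-like cells, 4552 CPM in SPG, 2279 CPM in Early-SPC, 2198 CPM in Late-SPC and 2165 CPM in SPT. It took 12.6% of the member counts in Early-SPC (interval 11.7 to 13.5), 6.63% in Late-SPC and 5.94% in SPT. RPLP1 took 10.0% in Early-SPC and 6.86% in Late-SPC. The stalk pair made up 22.6% of the member counts in Early-SPC and from 9.95% to 15.4% in the named somatic classes.

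RPL32, a 60S protein, had the smallest difference from T/NK-like cells in both spermatocyte types. Its level was 4709 CPM in T/NK-like cells, 2311 CPM in SPG, 1622 CPM in Early-SPC, 2782 CPM in Late-SPC and 2286 CPM in SPT. It took 4.20% of the member counts in SPG (interval 3.99 to 4.42), 8.97% in Early-SPC and 8.39% in Late-SPC (interval 7.96 to 8.83). In a germ-like cluster of 156 cells led by PIWIL1 and ADAM2, genes of late spermatocytes and spermatids, it took 10.4%. RPL32 was the only member above its SPG level in Late-SPC, by 0.27 on the log2 scale (0.16 to 0.38). RPL29 and RPL23, both of the 60S subunit, were at the other end in Early-SPC, at 183 CPM and 348 CPM, where T/NK-like cells held 2201 CPM and 4571 CPM.

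The feature labelled RPL10L was abundant in somatic cells. It stood at 6491 CPM in T/NK-like, 7092 CPM in B cell-like, 5849 CPM in MC-like and 5156 CPM in EC-like cells, and at 2757 CPM in SPG, 548 CPM in Early-SPC, 1046 CPM in Late-SPC and 1804 CPM in SPT. In the deposited feature order it lies between EMD and DNASE1L1, genes known from the mammalian X chromosome. In the RefSeq annotation of yak assembly Bosgru_T2T1.0, RPL10 lies among DNASE1L1, EMD and FLNA, and RPL10L lies near MDGA2 and EPB42. This assembly is another one than that of the files, and no coordinates were carried over. Near-identical copies can share reads, so the values are those of a labelled feature and are not assigned to the meiotic copy. The share of RPL10L in the sum of RPL10 and RPL10L was not analysed here, since no feature carried the symbol RPL10.

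RPL10L and RPS4X, which lies between CITED1 and PIN4 in the feature order, both had lower shares in spermatocytes than in SPG and SPT. RPL10L took 5.92% of the member counts in T/NK-like cells, 5.01% in SPG, 3.03% in Early-SPC (2.58 to 3.53), 3.15% in Late-SPC (2.89 to 3.44) and 4.95% in SPT. RPS4X took 2.27%, 2.11%, 0.912% (0.671 to 1.21), 1.44% (1.26 to 1.64) and 2.30% in the same order. For both, the intervals of the spermatocytes lay below those of SPG and SPT. In the cluster led by PIWIL1 they took 1.52% and 0.656%. SPG of germ-like clusters already stood at 3.08% and 1.23%, near the spermatocytes, and those of unnamed clusters at 6.43% and 2.80%. The 20 features nearest to RPL10L in the file order, other members left out, summed to 1513 CPM in SPG, 2195 CPM in Early-SPC, 317 CPM in Late-SPC and 582 CPM in SPT. Those around RPS4X summed to 92.1 CPM, 253 CPM, 27.3 CPM and 77.3 CPM, from 57, 72, 13 and 21 counts. Both neighbourhoods were thus above SPG in Early-SPC and below it in Late-SPC. MC-like cells stood at 1904 CPM around RPL10L and 74.2 CPM around RPS4X, and T/NK-like cells at 661 CPM and 101 CPM. The part of MC transcripts in the SPG values was not tested.

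**Figure D3:**
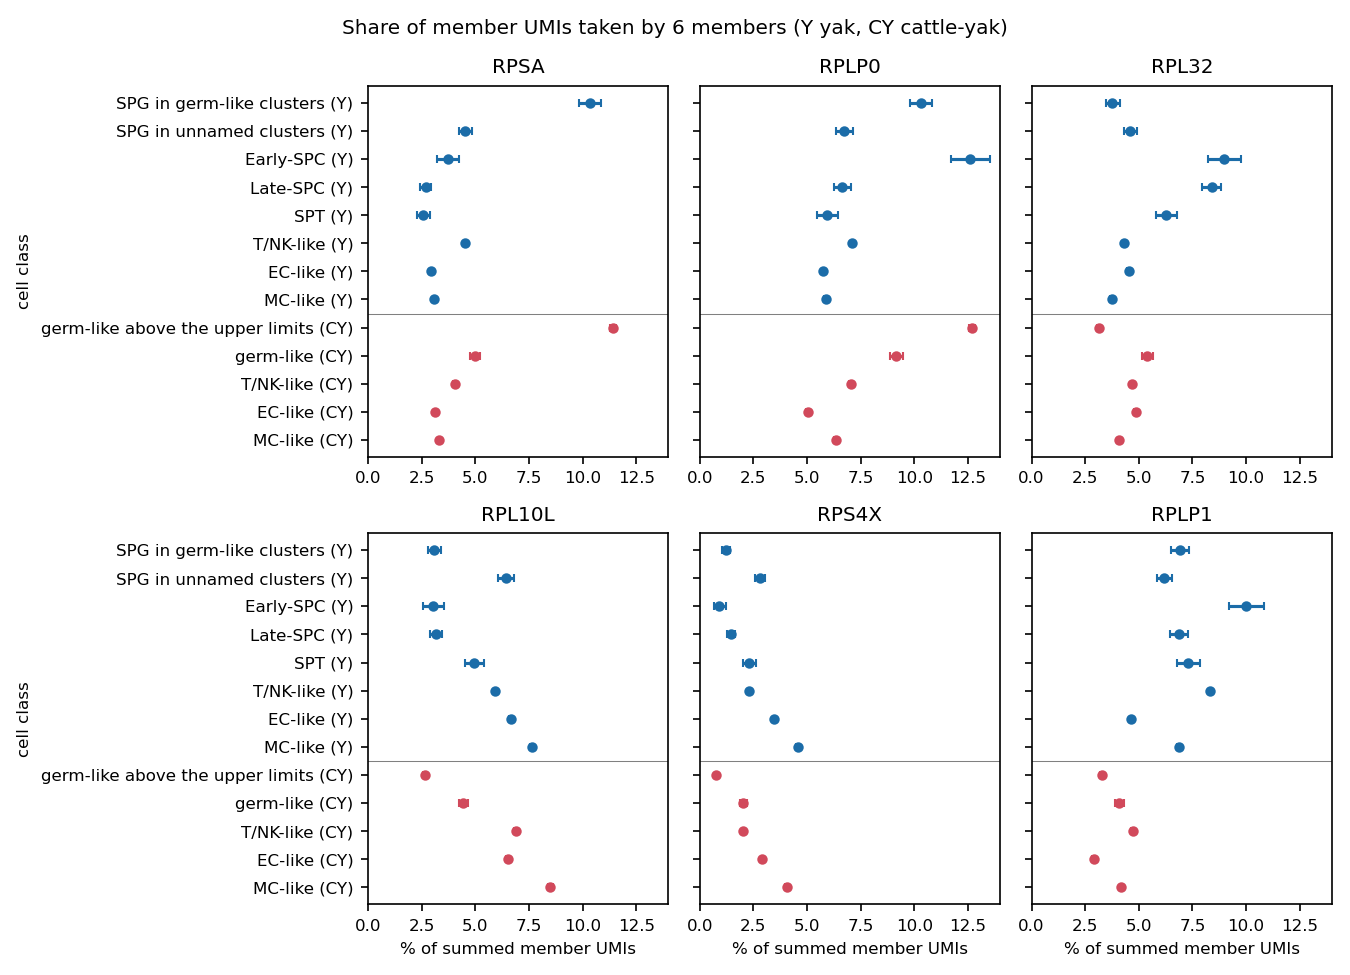
Share of the summed member UMIs (x axis, percent) taken by RPSA, RPLP0, RPL32, RPL10L, RPS4X and RPLP1 in cell classes (y axis) of the yak (Y) and the cattle-yak (CY), with exact 95% intervals for counting error. RPSA is highest in SPG of germ-like clusters (10.4%) and in cattle-yak germ-like cells above the upper limits on UMIs or genes (11.4%), where RPL10L and RPS4X are low.

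Other genes of the translation machinery lay on both sides of the T/NK-like level in germ cells. Of 32 genes found from a list of ribosome biogenesis factors, 30 could be compared in the pooled germ cells, of which 13 were at least 2-fold higher than in T/NK-like cells and 0 lower, with a median of 0.94 against 0.82 for all features. Of all features 45.2% were higher and 14.6% lower, so that the count of higher genes was near the background. In SPG 17 of 27 were higher and 0 lower (median 1.25), where 35% of all features were higher and 15.1% lower. In Early-SPC 11 of 27 were higher and 6 lower, against 31.4% and 37.1% of all features. In SPT 1 of 26 was higher and 5 lower, against 30.7% and 28.9%. NIP7 and RIOK1, factors of subunit assembly, had the largest ratios, with RIOK1 at 136 CPM in germ cells against 33.7 CPM. NOP56, a snoRNP protein, and UBTF, a factor of rRNA gene transcription, had the smallest, at -0.59 and -0.57. NOP14, an assembly factor of the 40S subunit, reached 720 CPM in Early-SPC against 55.5 CPM in T/NK-like cells, and was chosen after its values had been seen.

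Initiation factors were likewise split. Of 23 compared, 9 were at least 2-fold higher in the pooled germ cells and 1, EIF3F, was lower, with a median of 0.44, below the 0.82 of all features, of which 45.2% were higher and 14.6% lower. In Early-SPC 11 were higher and 9 lower, against 31.4% and 37.1% of all features. EIF1AX, an X-linked factor of start codon scanning, stood at 361 CPM in T/NK-like cells, 928 CPM in SPG and 4653 CPM in Early-SPC. EIF5B, which joins the subunits, stood at 200 CPM, 656 CPM and 1766 CPM. At the low end, EIF3F and EIF3E, subunits of the eIF3 complex, stood at -1.03 and -0.62. The 4 elongation and termination genes compared had a median of 0.12 and none passed 2-fold, with ETF1 and EIF5A2 highest (0.48 and 0.26) and EEF2 and GSPT1 lowest (-0.50 and -0.02). Of 6 genes of ribosome regulation 1 was higher, LARP4 (1.63), followed by MTOR (0.76), and MDM2 and MYC were lowest (-0.57 and -0.35).

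**Figure D4:**
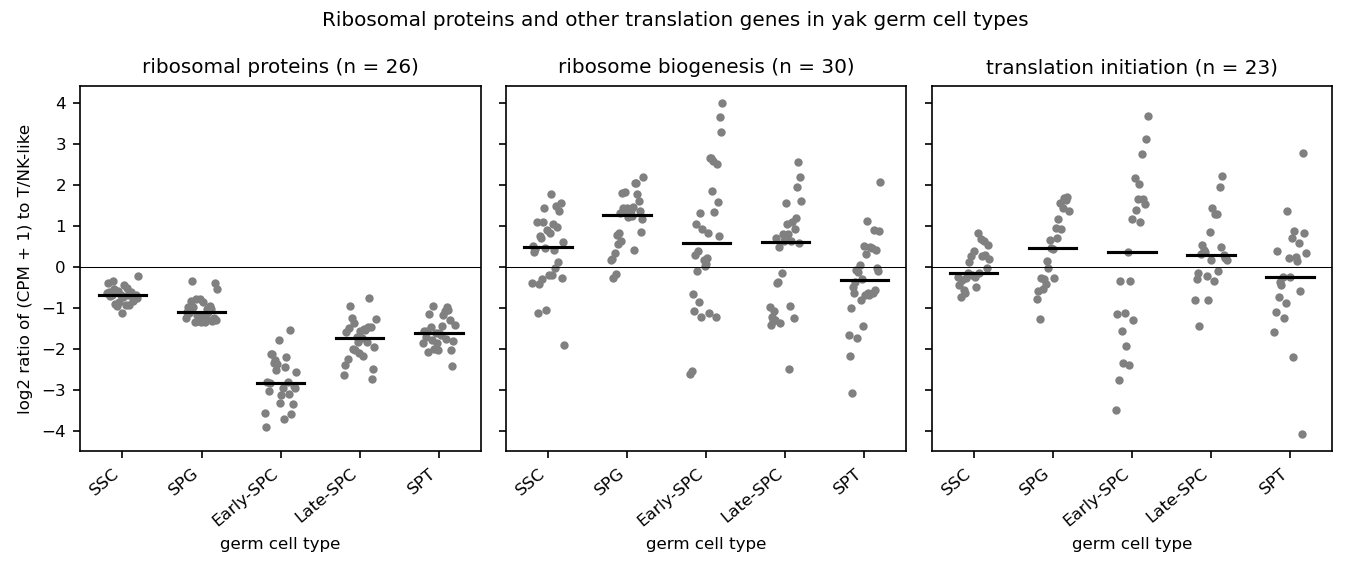
Log2 ratio of (CPM + 1) to T/NK-like cells (y axis) for single genes in 5 yak germ cell types (x axis), for 26 ribosomal protein genes, 30 ribosome biogenesis genes and 23 initiation factors, with the median of the plotted genes as a line. Genes are those compared in the pooled germ cells, so some have few counts in a single type. All 26 ribosomal protein genes lie below 0 in every type, and the other lists lie on both sides of 0.

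In the cattle-yak the order of the somatic classes was much the same. T/NK-like cells stood highest, at 9.42% (interval 9.38 to 9.45, 1167 cells), followed by pericyte-like (7.14%), EC-like (6.39%), MC-like (6.18%), macrophage-like (5.91%), lymphatic EC-like (4.53%) and stromal-like cells (4.35%). SC-like cells, a class named in the cattle-yak alone, stood at 3.87%, and 217 germ-like cells at 3.53%. Of 26 members, 25 were at least 2-fold lower in germ-like than in T/NK-like cells, against 15.6% of all features. RPL7A was the exception, at -0.67, and RPL10L and RPL29 were lowest, at -2.04 each. The germ-like class was a single cluster led by SYCP3, a protein of the synaptonemal complex, GML and SMC1B, and its summed SPT markers stood at 15.2 CPM against 3447 CPM in the yak germ-like clusters.

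Between the libraries, the summed members were lower in the cattle-yak in all 7 somatic classes with at least 50 cells in each, by 0.13 on the log2 scale in macrophage-like to 0.62 in lymphatic EC-like cells. For T/NK-like cells this ratio was -0.22 (-0.23 to -0.21). The mitochondrial and rRNA features took 21.4% and 15.3% of the UMIs of these cells in the cattle-yak and 15.4% and 9.52% in the yak. With these features left out of the total, the members took 14.9% and 14.6%, and the log2 ratio was 0.03. On this scale the pericyte-like and stromal-like classes also passed 0, at 0.01 (interval -0.01 to 0.03) and 0.03, macrophage-like cells stood at -0.01, and EC-like, MC-like and lymphatic EC-like cells stayed below 0, at -0.14, -0.18 and -0.30. The direction of the library difference thus depended on what the counts were divided by.

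RPLP1 stood apart from the other members between the libraries. Among T/NK-like cells it was at 4453 CPM in the cattle-yak and 9120 CPM in the yak, a log2 ratio of -1.03 (-1.06 to -1.01), and it was the 1 member at least 2-fold apart, against 6.75% of features lower and 2.66% higher. In MC-like cells it was at 2589 CPM and 5255 CPM (-1.02), again the 1 member past the limit against 2.77% of features. Without mitochondrial and rRNA features in the total, no member passed in either class. In T/NK-like cells none passed either with cells weighted equally or without the top Scrublet scores. In EC-like cells it was at 1845 CPM and 3591 CPM (-0.96) and in stromal-like cells at 1779 CPM and 3526 CPM (-0.99). There no member passed, against 3.43% and 7.52% of features lower. RPLP1 had the smallest ratio of all members in each somatic class except lymphatic EC-like cells. There RPL10A (-1.15), RPS3 (-1.08) and RPS4X (-0.90) were below RPLP1 (-0.86), and RPL10A and RPS3 passed 2-fold, against 7.68% of features. Without mitochondrial and rRNA features in the total, no member passed in these cells either. The share of RPLP1 in the member counts of T/NK-like cells was 4.73% (4.65 to 4.81) in the cattle-yak and 8.32% (8.26 to 8.38) in the yak. RPLP0, its partner in the stalk, took 7.07% and 7.12%.

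RPS3, which lines the mRNA entry of the 40S subunit, and RPL10A were the next lowest in T/NK-like cells, at -0.63 and -0.49.

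**Figure D5:**
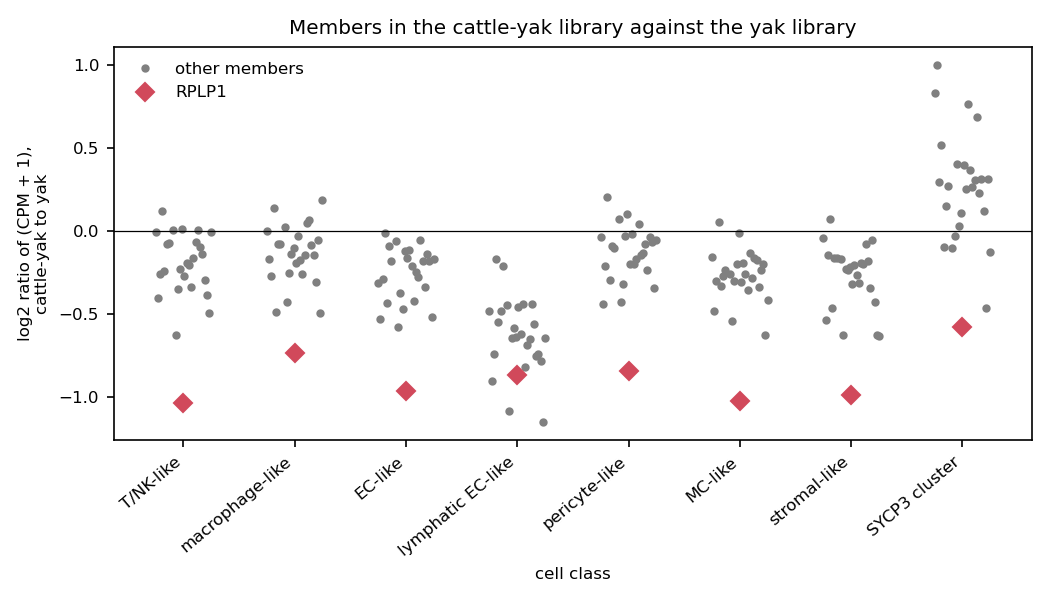
Log2 ratio of (CPM + 1) in the cattle-yak to the yak library (y axis) for 26 ribosomal protein genes in 7 somatic classes and in the cluster of each library led by SYCP3 (x axis). RPLP1 (diamonds) lies lowest in all but lymphatic EC-like cells, at -1.03 in T/NK-like cells and -0.58 in the SYCP3 clusters.

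For germ cells the libraries held different stages, and the comparison was therefore also made between the clusters led by SYCP3 alone. Of these, 287 cells were in the yak and 217 in the cattle-yak, with summed SPC markers at 4356 CPM and 2416 CPM. Their summed SPG markers stood at 1243 CPM and 787 CPM, against 19.8 CPM and 86.9 CPM in the other yak germ-like clusters. Yak germ-like clusters held 146 SPG cells of the study, so this choice did not match the libraries for stage. The members took 3.16% and 3.53% of UMIs, a log2 ratio of 0.16 (0.14 to 0.18). Without mitochondrial and rRNA features in the total, this ratio was 0.39 (0.36 to 0.41). RPS4X was at 358 CPM in the yak and 718 CPM in the cattle-yak cluster, a log2 ratio of 1.00 (0.83 to 1.18), and was the 1 member at least 2-fold higher, against 4.85% of features. None was at least 2-fold lower, against 11.7%. Without mitochondrial and rRNA features in the total, 2 members were at least 2-fold higher, and the share of all features on that scale is not given here. RPL10L was at 882 CPM and 1571 CPM (0.83), RPLP1 at 2156 CPM and 1446 CPM (-0.58) and RPSA at 2412 CPM and 1754 CPM (-0.46). Single cells of the cattle-yak cluster spread from 0.860% at the 10th percentile to 7.95% at the 90th. Over all germ-like clusters the log2 ratio was 0.20. Under 3 other settings, with 73 to 107 cattle-yak germ-like cells at 2.39% to 2.53%, this ratio turned below 0, and the SYCP3-led clusters were not compared under them.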

How the data were processed

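For each library, the authors deposited UMI counts per feature and cell barcode, whole numbers without normalization. The file headers name Cell Ranger 5.0.0, the submitters' processing notes version 2.1.1, and the methods of the paper another version. Features, their symbols and barcodes were used as deposited, and germ cell types were the study's own assignment of yak barcodes. The members and lists were chosen with earlier results of these data known.

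Cells within 2 standard deviations of the mean genes and UMIs and below a mitochondrial share of 30% were kept. They were clustered with scanpy 1.11.5 and igraph 0.11.9 (2000 variable genes, 30 components, 15 neighbours, Leiden resolution 1, seed 0) without the members, 37 mitochondrial and 2 rRNA features, and named by at least 3 enriched markers. Germ marker lists were merged. No doublets were removed in either library: Scrublet called 0 yak cells, so that it gave no call there, and 251 cattle-yak cells, which were kept.

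Counts were summed per class and scaled to CPM, and 1 CPM was added on each side of a log2 ratio. Levels are thus shares of the UMIs and not transcripts per cell. Features with at least 50 counts over both groups were compared at a limit of 2-fold. Sums had exact Poisson, shares Clopper-Pearson and ratios exact conditional intervals. The calls and intervals were tested on simulated data. Named genes were paralogs, the 5 members with the most counts, X-linked members, members at 0, and the 3 largest and smallest ratios of a comparison. For other lists the 2 largest and smallest ratios were named, and genes outside this rule, among them NOP14, were named after their values had been seen. Python 3.11.15, numpy 2.4.6, scipy 1.17.1, pandas 2.3.3 and matplotlib 3.10.9 were used. No sequence is shown, and values of single genes withheld from the text are not reported here.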

Additional observations from a re-analysis of the deposited data

Results flagged for a closer look

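The summed ribosomal protein genes were higher in the cattle-yak than in the yak library in the germ-like clusters, with a log2 ratio of 0.20 (0.18 to 0.22), and lower in each of the 7 somatic classes compared, from -0.62 to -0.13. The opposite directions called for a closer look, and the difference between classes was not tested. They were seen with all UMIs as the total. Without mitochondrial and rRNA features, T/NK-like and stromal-like cells stood at 0.03 and pericyte-like cells at 0.01. The other somatic classes then ran from -0.30 to -0.01, and the germ-like clusters stood at 0.51. With all UMIs, the germ-like ratio turned below 0 under 3 other settings. The yak germ-like clusters held 914 cells with SYCP3-led, PIWIL1-led and spermatid clusters, and the cattle-yak cluster held 217 cells without the spermatid genes, so that library and stage cannot be told apart.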

How the results depend on the processing

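Each value rests on 1 library, and no paired analysis was possible because the labels give no replicates. The log2 ratio of the summed members in pooled germ cells against T/NK-like cells was -1.39. It was -1.48 without mitochondrial and rRNA features in the total, -1.21 with cells weighted equally, -1.45 at a mitochondrial limit of 20%, -1.46 with the top 10% of Scrublet scores removed, -0.89 against EC-like cells, -1.37 with core genes only, -1.24 after thinning to 1000 UMIs and -1.37 without RPLP1, an alternative chosen after seeing the data. The 23 members at least 2-fold lower became 14 against EC-like cells and 0 when levels were scaled to the summed members, which removes the common shift by construction. For the EC-like reference, the share of all features at least 2-fold lower is not given here.

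The library difference in T/NK-like cells (-0.22) turned to 0.0267 without mitochondrial and rRNA features. It was -0.19 with cells weighted equally, -0.20 at the mitochondrial limit of 20%, -0.25 at resolution 0.5, -0.17 without high Scrublet scores, -0.23 with members kept in the clustering and also with core genes only, -0.21 after thinning and -0.16 without RPLP1. The 1 member at least 2-fold apart became 0 without mitochondrial and rRNA features, with cells weighted equally, without high Scrublet scores and on the scale of summed members, and 2 at a limit of 1.5-fold. The share of all features past 1.5-fold is not given here.

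The library difference in germ-like clusters (0.20) turned to -0.72 at the mitochondrial limit of 20%, -0.27 at resolution 2 and -0.29 with members kept in the clustering. These settings named 73, 107 and 104 cattle-yak cells germ-like in place of 217, and the first also named 1632 yak cells in place of 914, with a member share of 3.94% in place of 3.07%. It was 0.51 without mitochondrial and rRNA features, 0.15 with cells weighted equally, 0.63 without upper limits, 0.16 at resolution 0.5, 0.31 without high Scrublet scores, 0.18 with core genes only, 0.23 after thinning, 0.24 without RPLP1 and 0.16 between SYCP3-led clusters, chosen after seeing the data. The cause of these shifts was not tested. The share of RPL10L in RPL10 and RPL10L gave no value under any setting.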

Other observations

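Cells above the upper limits on genes or UMIs took no part in the comparisons. Of these, 324 in the yak and 220 in the cattle-yak were germ-like when the limits were lifted, with medians of 28629 and 24677 UMIs. The members took 2.30% of their UMIs in the yak and 3.82% in the cattle-yak. In the cattle-yak cells the summed SPG markers stood at 2530 CPM and the SPT markers at 14.1 CPM, whereas the yak cells held 4190 CPM of SPT markers, so that the marker levels differed between the libraries. RPS2 took 13.5% of the member counts in the cattle-yak cells, RPLP0 12.7% and RPSA 11.4% (11.3 to 11.6), while RPL10L took 2.64% and RPS4X 0.772%. The ratio of 60S to 40S member counts was 0.97 there, below that of every named class of either library. The large shares of RPS2 and RPSA, both 40S genes, enter this ratio, which leaves out RPL10L and the stalk pair. In the yak cells RPL32 took 9.16%, RPL10L 1.71% and RPS4X 0.596%.

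Cells of unnamed clusters that the study had not typed were left out of the comparisons as well. Typed cells there, among them 292 SPG cells, stayed in their germ cell type. In the yak, 96 cells led by WFDC2 stood at 9.67% with a range of 2.59% to 18.8% over the middle 80% of cells, the widest of any cluster there. A cluster of 304 yak cells with pericyte and EC genes, at a median of 10740 UMIs, stood at 8.62%. In the cattle-yak, 553 cells led by ENTPD2 and RBP4 stood at 4.42%.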
